A study of Mus musculus with 8 samples.

Results

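Interferon-stimulated genes are the genes that a cell turns on when it senses interferon, the cytokine released on viral infection or on detection of misplaced nucleic acid. The 49 genes described here are a written list of interferon-induced genes and their regulators, chosen with earlier results of these data known. All 49 were found among the 15948 genes measured in 8 mouse kidney libraries. None of the 49 passed the test between kidneys labelled Arhgef11Sglt2_DOCA and control kidneys labelled Sglt2Cre_DOCA, where 2.22% of all genes did. By the series title the Arhgef11Sglt2 group is a proximal tubule knockout of Arhgef11. In 39 of the 49 the mean difference was positive, against 47.9% of all genes. Of 53 further interferon-induced genes outside the list, 21 had a positive difference. Some libraries stood apart across the list. A single control library was the lowest of the 8 for 35 members (17.4% of all genes), and 1 Arhgef11Sglt2 library was the highest for 29 (14.0% of all genes).

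The samples were kidney RNA from a study of Arhgef11, high blood pressure and kidney injury. The groups were labelled Sglt2Cre_DOCA (5 libraries, the controls here) and Arhgef11Sglt2_DOCA (3 libraries). DOCA, in hypertension research, is deoxycorticosterone acetate, a mineralocorticoid, and the labels of both groups carry it, so no comparison with untreated kidneys was made. Sglt2 is a sodium-coupled transporter that reabsorbs glucose in the early proximal tubule, and its promoter is used to drive Cre recombinase in those cells. The product of Arhgef11 is a nucleotide exchange factor that switches on small GTPases. The genotype field says only that it does not apply, and the sources used here do not give strain, age, sex, the dose and time of treatment, or whether each library was a separate animal. The p-values therefore measure only how far these samples spread, which may be partly technical.

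Type I interferons signal through the receptor pair encoded by Ifnar1 and Ifnar2 and the kinases Jak1 and Tyk2 to a complex that holds Stat2 and Irf9 and binds the interferon-stimulated response element (ISRE). Interferon gamma signals through Ifngr1 and Ifngr2, and its target genes, Irf1 among them, are induced through the gamma-activated site (GAS). The guanylate-binding proteins (GBP) and immunity-related GTPases (IRG) are classic targets of interferon gamma, while the IFIT and OAS families are classic targets of type I interferon, and many genes answer to both. In the kidney, tubule cells, endothelium and resident macrophages can all express these genes.

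Values are given as normalized counts, back-transformed from the deposited log2 values. Folds are ratios of group means of these counts. Log2 differences, with their errors, are on the deposited scale, which compresses differences of low genes, and are always Arhgef11Sglt2 minus control. Estimated depth was 33100000 to 59500000 reads in the controls and 51400000 to 57800000 in the other group. Arhgef11 itself (ENSMUSG00000041977) had 3629, 3479, 3682, 3680.2 and 3928 normalized counts in control replicates 1 to 5 and 2935, 3919 and 3905 in Arhgef11Sglt2 replicates 1 to 3 (limma adjusted p = 0.834). Only Arhgef11Sglt2 replicate 1 lay below every control, so the kidney value did not check the labels, and each direction refers to libraries as labelled. The library names carry numbers that fall into a lower range, with control replicates 1 to 3 and the first and second Arhgef11Sglt2 replicates, and a higher range, with the remaining 3 libraries. The labels say that the kidneys came from 2 studies, but not which library came from which, nor that the number ranges mark them. The proximal tubule markers checked the tissue: their summed counts were 341290 to 400610 in the controls and 187760 to 299460 in the Arhgef11Sglt2 libraries, and 4 of 7 were lower past the threshold.

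The interferon-stimulated genes showed no call at a Benjamini-Hochberg adjusted p of 0.05 in limma, a linear model fitted on all 15948 genes. Among the members the lowest adjusted p was 0.102. In the same fit 100 genes (0.627%) were called higher and 254 (1.59%) lower. On the log2(normalized count + 10) scale these were 103 and 284, and with libraries also scaled to equal totals 164 and 215. At an unadjusted limma p under 0.05, 9 members were higher and none lower, beside 9.04% and 12.1% of all genes. The 49 members had a median log2 difference of 0.10, against -0.01 over all genes, and their folds ran from 0.797 to 1.5. For 47 of the 49 the log2 range of the 5 controls alone was wider than the difference between the groups, as it was for 82.0% of all genes. Oasl1 and Eif2ak2 were the exceptions. In 5 members, 10.2% of the list, every Arhgef11Sglt2 library lay above every control, beside 6.20% of all genes. No member had the opposite order, beside 8.14% of all genes. These 5 were Stat2, Ifit3, Oasl1, Eif2ak2 and Rtp4.

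**Figure D1:**
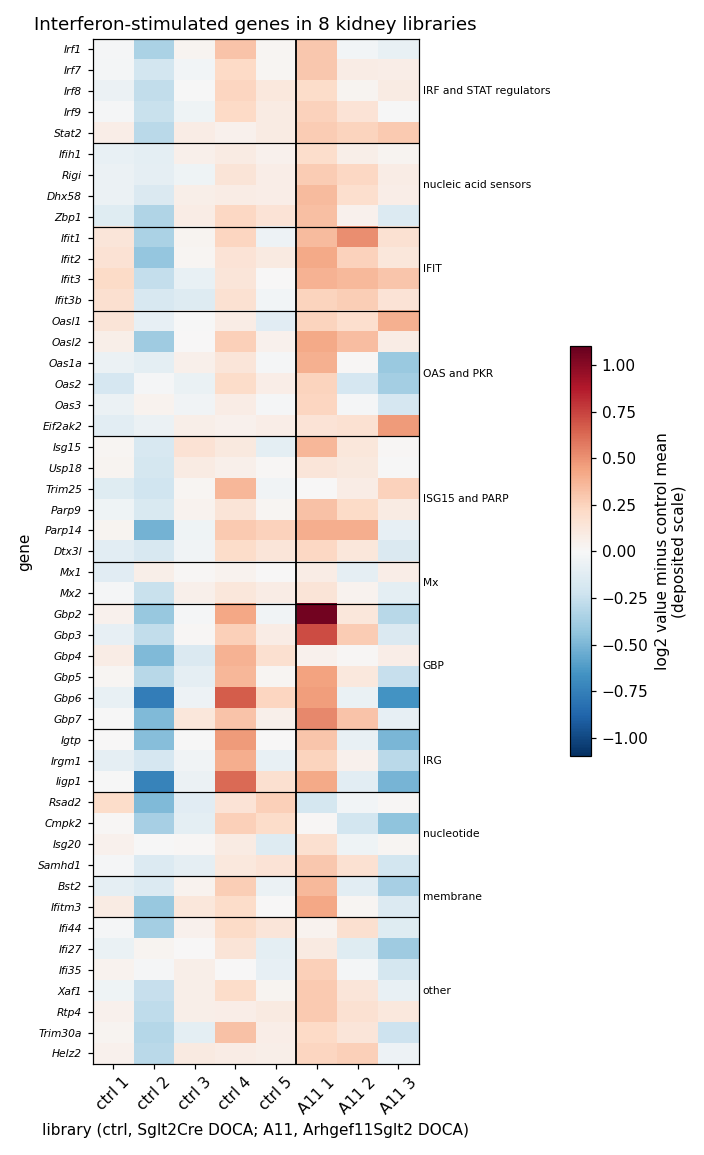
Each row is 1 of the 49 genes, grouped by role, and each column 1 of the 8 libraries; colour gives the deposited log2 value minus the mean of the 5 controls. Control 2 is blue over most rows, control 4 and Arhgef11Sglt2 replicate 1 are red over most rows, and Arhgef11Sglt2 replicate 3 is mixed, red for Stat2, Ifit3, Oasl1 and Eif2ak2 and blue for the GBP and IRG genes other than Gbp4.

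**Figure D2:**
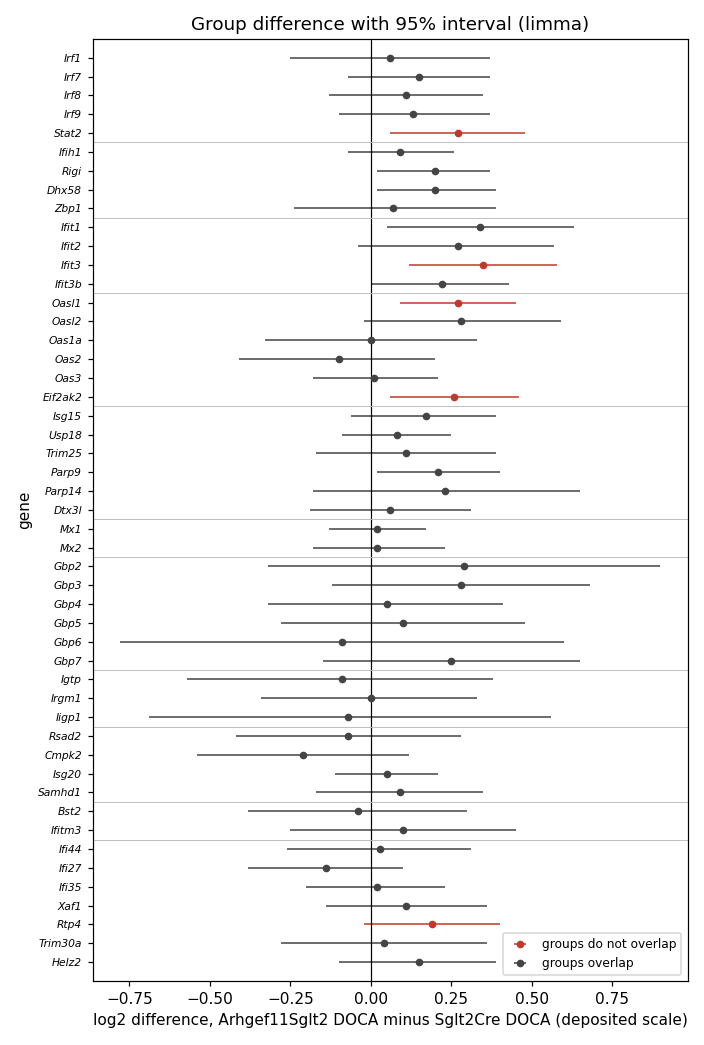
Points are the log2 difference of each gene (Arhgef11Sglt2 DOCA minus Sglt2Cre DOCA, deposited scale) and bars its 95% interval from limma, in red for the 5 members whose groups do not overlap. The intervals of Ifit1 (0.05 to 0.63) and Ifit3 (0.12 to 0.58) lie above 0, and those of all 9 GBP and IRG genes include 0.

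Among the regulators, Stat2, the partner of Irf9 in the type I interferon complex, was the member whose Arhgef11Sglt2 libraries lay closest together. Stat2 (ENSMUSG00000040033) had 1566, 1105, 1574, 1534 and 1588 normalized counts in control replicates 1 to 5 and 1885, 1826 and 1889 in Arhgef11Sglt2 replicates 1 to 3. Control replicate 2 stood well below the other controls, and the groups did not overlap. The fold was 1.27 (log2 difference 0.27, SE 0.09, limma adjusted p = 0.146, and by a two-sided exact permutation test p = 0.0179, the smallest that the 56 splits can give). Irf1, Irf7, Irf8 and Irf9, transcription factors that are induced by interferon and then induce further targets, had folds of 1.05, 1.15, 1.1 and 1.12, and their groups overlapped. All 5 regulators were lowest among the controls in replicate 2, and 4 were highest in control replicate 4.

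Of the cytosolic nucleic acid sensors, Rigi (RIG-I) and Ifih1 (MDA5) bind viral RNA, Dhx58 (LGP2) modulates both, and Zbp1 binds left-handed nucleic acid. Rigi (ENSMUSG00000040296) had 2079, 2013, 2114, 2484 and 2333 normalized counts in the controls and 2781, 2665 and 2353 in the Arhgef11Sglt2 libraries. Arhgef11Sglt2 replicates 1 and 2 lay above every control and replicate 3 lay among them. The fold was 1.18 (log2 difference 0.20, SE 0.08, limma adjusted p = 0.196, and by exact permutation p = 0.0536). Dhx58 followed the same order, with 178, 149, 225, 231 and 226 in the controls and 348, 272 and 227 in the other group, a fold of 1.4 and a limma adjusted p of 0.201. Ifih1 and Zbp1 had folds of 1.1 and 1.11. All 4 sensors were above every control in Arhgef11Sglt2 replicate 1, 2 of them were so in replicate 2 and none in replicate 3.

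The IFIT genes, whose proteins bind foreign RNA ends, were the role group with the highest median difference, 0.30, with 4 of 4 differences positive. Ifit3 (ENSMUSG00000074896) had 2168, 1423, 1679, 2034 and 1808 normalized counts in control replicates 1 to 5 and 2516, 2459.7 and 2346 in Arhgef11Sglt2 replicates 1 to 3. The groups did not overlap, although control replicate 1 reached 2168 against 2346 in Arhgef11Sglt2 replicate 3. The fold was 1.34 (log2 difference 0.35, SE 0.10, limma adjusted p = 0.102, and by exact permutation p = 0.0357). Ifit1 (ENSMUSG00000034459) had 891, 522, 803, 997 and 731 in the controls and 1110.4, 1297 and 926 in the other group (fold 1.41, limma adjusted p = 0.172). Its highest library was Arhgef11Sglt2 replicate 2, and replicate 3 lay below control replicate 4. Ifit3b had 704, 463, 484, 702 and 558 in the controls and 761, 779 and 683 in the Arhgef11Sglt2 libraries (fold 1.27, limma adjusted p = 0.229), and Ifit2 had a fold of 1.26. Arhgef11Sglt2 replicates 1 and 2 were above every control for all 4 IFIT genes and replicate 3 for Ifit3 alone. Without control replicate 2 the number of members at an unadjusted limma p under 0.05 went from 9 to 6, again with none past the threshold. The share of all genes at that cut-off without this library was not computed.

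Promoter stretches of the IFIT genes are shown because these genes lay highest together. Sequences are from RefSeq (GRCm38.p6, not the build named in the submitters' notes), 5′ to 3′ on the gene's strand and upstream of the start site, with ISRE letters (GAAA, any 2 bases, GAAA; read as TTTC, any 2 bases, TTTC where the opposite strand carries it) in capitals. The shown stretches of Ifit3 and Ifit3b were identical at 68 of 68 bases, and reads from such near-identical copies may be split between them, so their separate values are uncertain.
Ifit3, chr19:34583361-34583428 (+ strand): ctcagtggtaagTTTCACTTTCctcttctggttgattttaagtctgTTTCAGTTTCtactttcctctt
Ifit3b, chr19:34607757-34607824 (+ strand): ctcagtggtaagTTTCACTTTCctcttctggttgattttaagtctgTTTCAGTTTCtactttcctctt
Ifit1, chr19:34640773-34640825 (+ strand): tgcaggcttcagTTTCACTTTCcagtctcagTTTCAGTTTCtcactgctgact

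The OAS family makes the messenger that activates RNase L, and Eif2ak2 encodes PKR, the kinase that stops translation on double-stranded RNA. Within this group the members went apart. Oasl1 (ENSMUSG00000041827), an OAS-like protein without the synthetase activity, had 311, 215, 249.7, 285 and 202 normalized counts in the controls and 362, 331 and 441 in the Arhgef11Sglt2 libraries. The highest control, replicate 1, lay just under Arhgef11Sglt2 replicate 2, and the fold was 1.5 (log2 difference 0.27, SE 0.08, limma adjusted p = 0.102, and by exact permutation p = 0.0357). Eif2ak2 (ENSMUSG00000024079) had 1371, 1440.1, 1617, 1589 and 1633 in the controls and 1748, 1774 and 2294 in the other group. Replicate 3 stood highest, and replicates 1 and 2 exceeded the highest control by less than the range of the controls. The fold was 1.27 (log2 difference 0.26, SE 0.09, limma adjusted p = 0.139, and by exact permutation p = 0.0179). Oasl2 had a fold of 1.3 (limma adjusted p = 0.273), with Arhgef11Sglt2 replicates 1 and 2 above every control and replicate 3 among them. The genes Oas1a, Oas2 and Oas3 behaved otherwise. Oas1a, chosen for description after its values were seen, had 312, 291, 369, 414 and 337 in the controls and 569, 351 and 177 in the Arhgef11Sglt2 libraries. Its group means differed by a fold of only 1.06, while Arhgef11Sglt2 replicate 1 was 3.22 times replicate 3, and those libraries were the highest and the lowest of the 8. Oas2 and Oas3 had the same highest and lowest library. Genes of the Oas1 cluster are near-identical copies, and their single values are uncertain.

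The ISG15 system attaches the ubiquitin-like protein Isg15 to other proteins. Usp18 removes it and restrains the receptor, Trim25 activates RIG-I, and Parp9, Dtx3l and Parp14 act in ADP-ribosylation and ubiquitin transfer. All 6 members of this group had a positive difference, and none passed the test. Parp9 (ENSMUSG00000022906) had 1372, 1231, 1493, 1637 and 1468 normalized counts in the controls and 1919, 1737 and 1560.1 in the other group (fold 1.21, log2 difference 0.21, SE 0.08, limma adjusted p = 0.195). Arhgef11Sglt2 replicate 3 lay below control replicate 4, so the groups overlapped. Trim25 (ENSMUSG00000000275) had 3997, 3738, 4501, 5855 and 4298 in the controls and 4441, 4718 and 5369 in the Arhgef11Sglt2 libraries, and here the highest library was control replicate 4. Isg15 itself had 374, 282, 451, 423 and 314 in the controls and 581, 433 and 372 in the other group, a fold of 1.25 with the groups overlapping. Its promoter is shown because it holds a run of 3 ISRE matches whose ends overlap.
Isg15, chr4:156200863-156200908 (- strand): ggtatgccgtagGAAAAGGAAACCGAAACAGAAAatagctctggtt

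The GBP and IRG genes encode large GTPases that attack the vacuoles of intracellular parasites and bacteria. They held the 5 widest ranges among the Arhgef11Sglt2 libraries on the deposited log2 scale, although Gbp4 had a range of only 0.06. In normalized counts, Arhgef11Sglt2 replicate 1 over replicate 3 was larger for Oas1a (3.22) than for any of them but Gbp2. Gbp2 (ENSMUSG00000028270) had 1368, 861, 1292, 1919.5 and 1259.9 normalized counts in control replicates 1 to 5 and 3261, 1467 and 972 in Arhgef11Sglt2 replicates 1 to 3. Replicate 1 was the highest of the 8 libraries and 3.36 times replicate 3, which lay below all controls but replicate 2. Without replicate 1 the log2 difference of 0.29 became -0.09. Group levels were 1340.2 ± 379 (SD, n = 5) against 1899.8 ± 1204 (SD, n = 3), so the difference was smaller than the spread. Gbp3 (ENSMUSG00000028268) had 892, 732, 994, 1269 and 1063 in the controls and 1915, 1287 and 830.3 in the other group, with the same order of the Arhgef11Sglt2 libraries. Gbp6 (ENSMUSG00000104713) had 1578, 808, 1607, 2982 and 2082 in the controls and 2511, 1581 and 907 in the Arhgef11Sglt2 libraries. Here the highest library was control replicate 4, 3.69 times control replicate 2, which was the lowest. Gbp6 belongs to a cluster of near-identical copies, so its single values are uncertain.

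All 3 IRG genes had fold values near 1. Igtp (ENSMUSG00000078853) had 1377, 859, 1362, 2078 and 1376 normalized counts in the controls and 1806, 1267 and 828 in the other group. Irgm1 (ENSMUSG00000046879), a regulator of the other IRG proteins, had 3569, 3326, 3737, 5234 and 3612 in the controls and 4645, 3997 and 3029.9 in the Arhgef11Sglt2 libraries. Iigp1 (ENSMUSG00000054072) had 1712, 844, 1621, 2909 and 2006 in the controls and 2455, 1549.7 and 1062 in the Arhgef11Sglt2 libraries. In each of them control replicate 4 was the highest library, and the folds between the groups were 0.922, 0.999 and 0.929. Over the 9 GBP and IRG genes together, control replicate 2 was the lowest control for 9 of 9 and control replicate 4 the highest control for 9 of 9, beside 27.9% and 18.1% of all genes. The stretches below are shown because these genes moved with the same libraries. They carry ISRE letters close to the start site, and Igtp also carries a GAS match (TTCNNNGAA, its own reverse complement), here the first capital run.
Gbp2, chr3:142620592-142620625 (+ strand): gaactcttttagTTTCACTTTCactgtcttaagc
Gbp3, chr3:142559987-142560026 (+ strand): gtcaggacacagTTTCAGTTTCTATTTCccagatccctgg
Igtp, chr11:58199499-58199543 (+ strand): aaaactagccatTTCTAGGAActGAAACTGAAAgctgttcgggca
Irgm1, chr11:48871423-48871462 (- strand): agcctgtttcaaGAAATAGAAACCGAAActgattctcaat

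**Figure D3:**
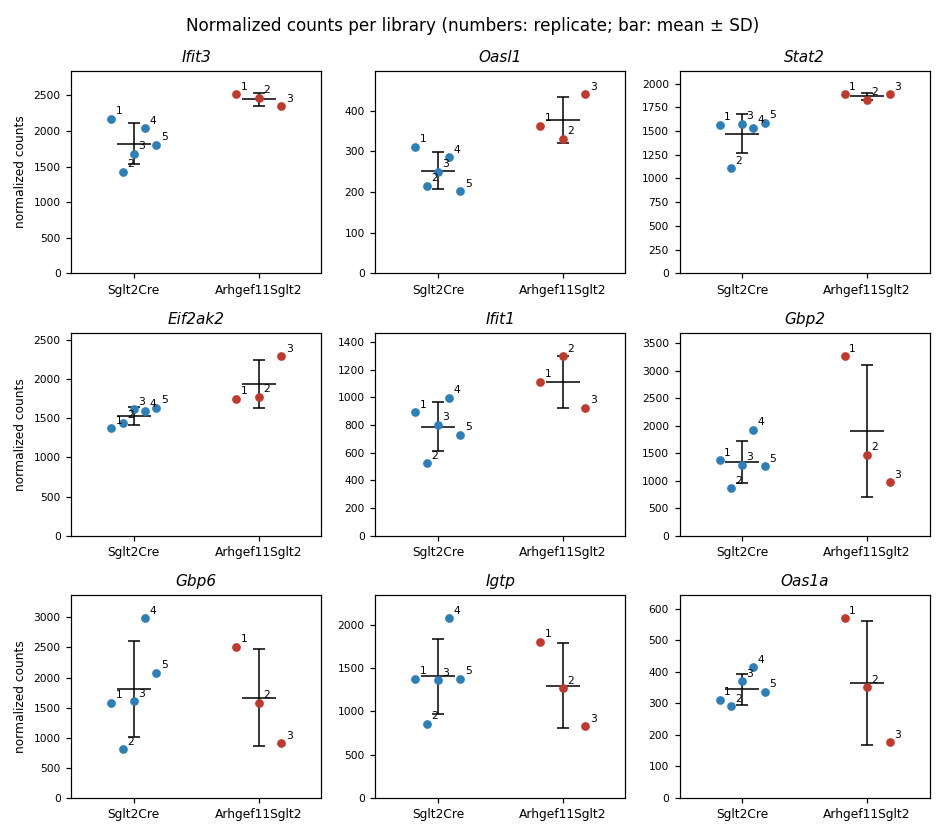
Each panel plots normalized counts of 1 gene (axis from 0) in the 5 Sglt2Cre and 3 Arhgef11Sglt2 libraries, with replicate numbers beside the points and the mean ± SD as bars. Ifit3, Oasl1, Stat2 and Eif2ak2 show no overlap between the groups, while in Gbp2, Gbp6, Igtp and Oas1a Arhgef11Sglt2 replicate 1 lies high and replicate 3 low.

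Of the genes that act on nucleotides, Rsad2 (viperin) makes a chain-terminating nucleotide and Cmpk2 is its neighbour and partner kinase. Rsad2 (ENSMUSG00000020641) had 2586, 1417, 1964, 2485 and 2727 normalized counts in the controls and 1849, 2134 and 2216 in the Arhgef11Sglt2 libraries, within the range of the controls. Cmpk2 (ENSMUSG00000020638) had 965, 639.7, 854, 1236 and 1163 in the controls and 965, 771 and 586 in the Arhgef11Sglt2 libraries, a fold of 0.797. Replicate 3 was the lowest of the 8, and Cmpk2 had the most negative difference of the list, -0.21 (SE 0.15). Isg20, an RNA exonuclease, and Samhd1, which depletes nucleotides, had folds of 1.14 and 1.09. Ifitm3 (ENSMUSG00000025492), a membrane protein that blocks viral fusion, had 2200.2, 1408, 2267, 2419.7 and 2050.3 in the controls and 2912, 2084 and 1792 in the other group, with groups that overlapped. Bst2 (tetherin) had a fold of 0.983.

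Rtp4 (ENSMUSG00000033355), a receptor transporter protein induced by interferon, had 382, 234, 391, 398 and 411 normalized counts in the controls and 524, 449.6 and 420.4 in the Arhgef11Sglt2 libraries. Its groups did not overlap, but control replicate 5 (411) and Arhgef11Sglt2 replicate 3 (420.4) nearly met (fold 1.28, log2 difference 0.19, SE 0.09, limma adjusted p = 0.28, and by exact permutation p = 0.0714). Ifi27 (ENSMUSG00000064215), a small mitochondrial protein, had 1733, 1900.5, 1859, 2084 and 1684 in the controls and 2016, 1646 and 1296 in the Arhgef11Sglt2 libraries, and both replicates 2 and 3 lay below every control. Mx1 (ENSMUSG00000000386), a dynamin-like antiviral GTPase, had 141, 204, 184, 195 and 184 in the controls and 209, 150.5 and 208 in the Arhgef11Sglt2 libraries, with a fold of 1.04, and Mx2 had a fold of 1.05. The other 5 genes of mixed role (Ifi44, Ifi35, Xaf1, Trim30a and Helz2) had folds from 1.02 to 1.16, with overlapping groups.

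The groups compared differently within the 2 ranges of library numbers. Among the lower-numbered libraries, both Arhgef11Sglt2 libraries lay above all 3 controls for 28 of 49 members (57.1%; 13.0% of all genes) and below them for none (14.8% of all genes). Among the higher-numbered ones, the single Arhgef11Sglt2 library lay below both controls for 32 members (65.3%; 45.1% of all genes) and above both for 6 (12.2%; 38.6% of all genes). For 15 members (30.6%; 2.55% of all genes) the order turned completely between the ranges, among them Gbp2, Gbp3, Gbp5, Gbp7, Irgm1, Parp14 and Samhd1, and for none in the reverse sense (1.96% of all genes). The mean difference was positive in the lower range for 48 (49.9% of all genes), negative in the higher range for 36 (53.4%), and both for 35 (19.0%). The 6 members above both controls in the higher range were Stat2, Ifit3, Oasl1, Eif2ak2, Mx1 and Rtp4.

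Over all members the median log2 difference was 0.28 in the lower range and -0.20 in the higher range, beside 0.00 and -0.02 over all genes. It was 0.42 and 0.07 for the IFIT genes. For the GBP and IRG genes together it was 0.42 and -0.46. Gbp2, for instance, was 2.01-fold higher in the lower range and 1.64-fold lower in the higher range. A limma interaction between group and range, added after the data were seen, passed an adjusted p of 0.05 for none of the members and for 2 of all 15948 genes (0.0125%). At an unadjusted p under 0.05 it held 23 members (46.9%; 7.53% of all genes), all with the smaller or more negative difference in the higher range, and none the other way (5.84% of all genes). The higher range holds 1 Arhgef11Sglt2 library, which the model assumes to vary like the others, so a property of that library and of the range cannot be told apart.

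**Figure D4:**
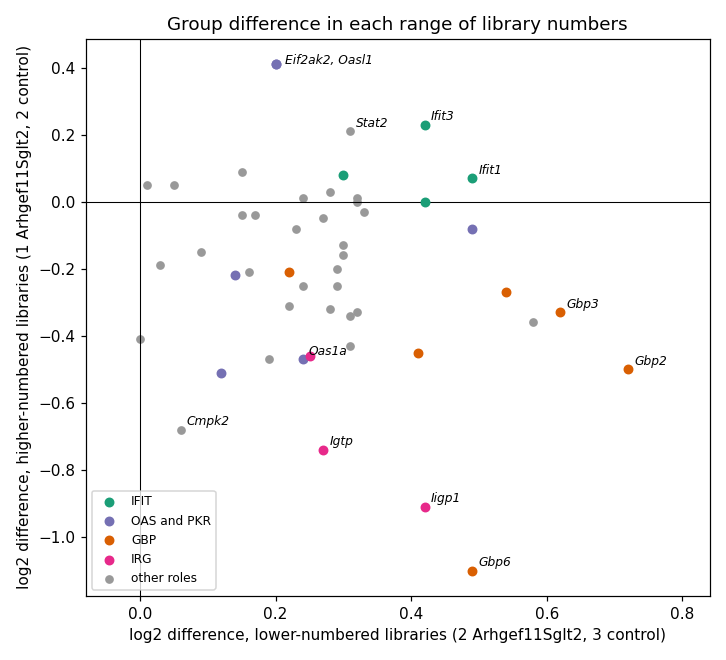
Each point is 1 of the 49 genes, with its log2 difference (Arhgef11Sglt2 minus control, deposited scale) among the lower-numbered libraries on the horizontal axis and among the higher-numbered libraries on the vertical axis. Of the points, 48 lie right of 0 and 36 below 0; Ifit3 and Stat2 lie above the member median in both, while Oasl1 and Eif2ak2 lie at 0.20 in the lower range, below the member median of 0.28, and highest, at 0.41, in the higher range.

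Single libraries stood apart over many of the members. Control replicate 2 was the lowest of the controls for 41 of 49 members, beside 27.9% of all genes, and control replicate 4 the highest for 35, beside 18.1%. Arhgef11Sglt2 replicate 1 lay above every control for 36 members (22.5% of all genes) and below every control for none (22.4%). Replicate 2 lay above every control for 18 (21.6% of all genes) and below for 2, Oas2 and Ifi27 (25.7%). Replicate 3 lay above every control for 6 (28.6% of all genes). It lay below every control for 10 (33.3%), among them Oas1a, Oas2, Oas3, Igtp, Irgm1 and Bst2. Replicate 1 exceeded replicate 3 for 43 members (52.4% of all genes). The median of the members relative to the control mean was -0.25 in control replicate 2 and 0.20 in control replicate 4. It was 0.28, 0.12 and -0.08 in Arhgef11Sglt2 replicates 1, 2 and 3. Without control replicate 2 the median group difference of 0.10 became 0.05, and without Arhgef11Sglt2 replicate 1 it became 0.03, the replicate whose absence raised the calls over all genes from 354 to 1334.

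Markers of other cell types moved with some of these libraries. In bulk tissue fewer cells of a type and less RNA per cell cannot be told apart. The 9 macrophage markers summed to 12932 to 16873 normalized counts in the controls and to 24210, 14414 and 8196 in Arhgef11Sglt2 replicates 1, 2 and 3. None was at 0. The GBP and IRG genes other than Gbp4 had the same order, as did the median of all members. These genes moved together, and the share of all genes with that order was not computed. The shared order is therefore not read as a result about the members. Of the macrophage markers singly, Csf1r (2834, 2859 and 1714) and Cd68 (719, 342 and 432) did not follow that order. The sum of the 5 fibroblast and pericyte markers had that order too (44773, 28500 and 14298, against 27746 to 34823). It was carried mostly by Col1a1 (11404, 5854 and 1989) and Col3a1 (22543, 12302 and 3757). Pdgfra was highest in replicate 2 (3568), and Dcn stayed within the range of the controls. In control replicate 2 the macrophage sum of 14924 lay among the other controls, while the 5 endothelial markers summed to 8392, against 12550 to 16668 in the other controls and 10975 to 13598 in the Arhgef11Sglt2 libraries. The 6 T cell markers summed to 243.1 to 582 in the controls and 329, 205 and 169 in the other group. The 5 NK cell markers summed to 40.6 to 109 and to 68.1, 41.9 and 65.9, and 1 of them was at 0 in a library. The 5 dendritic cell markers summed to 223 to 493 and to 330.4, 151 and 159. No marker of these 6 lists passed the threshold. Of the other blood cell lists, 1 of 5 neutrophil markers was higher past the threshold (sums of 179.9 to 402 in the controls and 392.4 to 633 in the other group). Of 5 plasma cell markers 2, Jchain and Igkc, were lower past it (4122 to 12740.0 and 2461 to 3962). Sdc1, of the same list, lay the other way, with every Arhgef11Sglt2 library above every control. It had 714 to 1083 normalized counts in the controls and 1703, 1160.5 and 2412 in the other group (fold 1.83, limma adjusted p = 0.0816). No B cell marker passed (87.0 to 138 and 53.5 to 97.4). Ptprc, the pan-leukocyte marker, ran from 1241 to 1997 in the controls and was 1728, 1230.2 and 845 in Arhgef11Sglt2 replicates 1, 2 and 3. No marker of the thick ascending limb, distal convoluted tubule, collecting duct or podocytes passed. Control replicate 2 was low beyond the endothelial list. Its plasma cell sum was 4122, against 10058 to 12740 in the other controls, and its podocyte sum 11266, against 14348 to 16000. Its neutrophil, distal convoluted tubule and collecting duct sums were the highest of the controls. The part of any of these cell types in the levels of the interferon-stimulated genes was not tested.

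**Figure D5:**
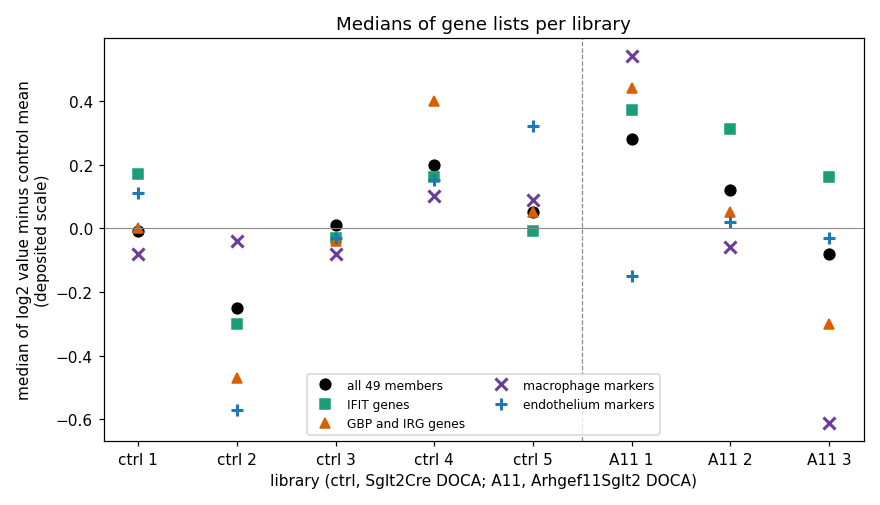
The vertical axis gives, for each library, the median over a list of the log2 value minus the control mean (deposited scale), for all 49 members, the IFIT genes, the GBP and IRG genes, and the macrophage and endothelial markers. In control 2 the members lie low with the endothelial markers (-0.57) and not with the macrophage markers (-0.04). The podocyte markers, not plotted, were also low there (-0.30). Over the 3 Arhgef11Sglt2 libraries the GBP and IRG genes (0.44, 0.05 and -0.30) follow the order of the macrophage markers (0.54, -0.06 and -0.61). So do the medians of all members (0.28, 0.12 and -0.08) and of the IFIT genes (0.37, 0.31 and 0.16). Singly, Ifit1 and Ifit3b did not, and were highest in Arhgef11Sglt2 replicate 2. The share of all genes with this order was not computed.

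Upstream of the members, none of the 21 interferon ligand genes looked for was found among the genes measured, so their levels are not known. Of the 6 receptor genes none passed the threshold, and 3 had every Arhgef11Sglt2 library above every control, as 6.20% of all genes did. Ifngr1, the ligand-binding chain of the interferon gamma receptor, had 1793, 2144, 2061, 1958 and 1973 normalized counts in the controls and 3090.2, 2302 and 3211 in the Arhgef11Sglt2 libraries. The fold was 1.44 (log2 difference 0.43, SE 0.10, limma adjusted p = 0.054, and by exact permutation p = 0.0179). Ifngr2, its signalling chain, had 1068, 1297, 1583, 1380.3 and 1314 in the controls and 2201, 1797 and 1644 in the Arhgef11Sglt2 libraries (fold 1.42, limma adjusted p = 0.0853). Ifnlr1, of the lambda interferon receptor, had a fold of 1.29, and Ifnar1, Ifnar2 and Il10rb had folds of 1.04, 0.98 and 0.875. The receptor chains for interferon gamma were thus above every control in all 3 libraries, also in replicate 3, where the GBP and IRG genes other than Gbp4 lay below the control mean.

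Of 15 upstream sensors and adaptors none passed, and Myd88, the adaptor of most Toll-like receptors, had the smallest p (859, 909, 1084, 1018 and 931 against 1409.8, 1098 and 1274, fold 1.31, limma adjusted p = 0.101). Of 7 feedback inhibitors none passed. Socs3, which blocks receptor signalling and is also induced by STAT3, led them with 588, 390.3, 1009.5, 848 and 976 in the controls and 1692, 1037 and 1823 in the other group (fold 1.99, limma adjusted p = 0.0959). The median log2 difference was 0.11 over the receptors, 0.01 over the sensors and adaptors and 0.14 over the feedback inhibitors.

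A further 53 interferon-induced genes outside the list, of 56 looked for, had a median log2 difference of -0.02, with 21 positive (47.9% of all genes) and 32 negative. Lgals3bp, a secreted glycoprotein, rose and was the only gene of that list past the threshold, 1 of 53 beside 2.22% of all genes, so the count over this list is near the background. It had 4739, 4801, 4461, 4650.2 and 4108 normalized counts in control replicates 1 to 5 and 5884, 6049 and 6178 in Arhgef11Sglt2 replicates 1 to 3, a fold of 1.33 (log2 difference 0.37, SE 0.07, limma adjusted p = 0.0317, and by exact permutation p = 0.0179). In this gene every library of the group lay well above the highest control.

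Promoter letters were compared with all promoters. RefSeq windows of 300 bases (250 before and 50 after the start site, GRCm38.p6) matched 36 of the 49 members, with 44 windows. The ISRE letters were found on either strand in 21 of the 44 windows (47.7%), against 3.44% of 32851 windows of all genes, and in 9 of them at 2 or more positions (0.225% of all windows). The GAS letters were in 13 windows (29.5%, against 8.30%), and both motifs in 7 (0.454% of all windows). A match is a description of these letters only. All 4 IFIT genes had windows, and 3 of them, Ifit1, Ifit3 and Ifit3b, held a pair of ISRE matches each. Of the GBP and IRG genes, Gbp2, Gbp3, Gbp5, Gbp7, Igtp and Irgm1 had windows and all 6 held an ISRE match, while Gbp5, Gbp7 and Igtp also held a GAS match. The members that lay above the controls in every Arhgef11Sglt2 library did not share these letters: Stat2, Ifit3 and Eif2ak2 held an ISRE match, Oasl1 held neither motif, and Rtp4 had no window.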

How the data were processed

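Messenger RNA of 8 mouse kidney libraries was analysed, 5 labelled Sglt2Cre_DOCA and 3 labelled Arhgef11Sglt2_DOCA. Per the labels' protocols, libraries were made with a TruSeq stranded mRNA kit and sequenced on a NextSeq instrument. Salmon 1.10.0, DESeq2 and GRCm39 are named in the submitters' processing notes. The sources used here do not name the annotation or the gene filter. For 15948 genes the deposited numbers are variance-stabilized log2 values, as read from the values themselves: none is whole, and the lowest value is 8.1275 in every library (279.7 when unlogged), taken as a count of 0. The transformation was inverted from that minimum to give normalized counts. Low values piled up at multiples of a step (31.0% to 57.1% within 0.02 steps of a whole number), which gives the estimated depth; read counts were not recovered, so no count model was used.

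The test was limma 3.58.1 in R 4.3.3 on the deposited log2 values, group as the only term, all 8 libraries, variance trend, 6 residual degrees of freedom, Benjamini-Hochberg over all genes at 0.05. Exact permutation tests were two-sided over the 56 splits, with 0.0179 as the smallest p. Symbols matched 15902 identifiers (99.71%). Rigi was matched under its older symbol. Of the 49 members, 47 had a mean of at least 100 normalized counts and all were tested.

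The members and lists were chosen with earlier results of these data known. Members were named with every library value if they passed the threshold, did not overlap between groups, had the highest level or smallest p of their role, or had 1 of the 5 widest ranges among the Arhgef11Sglt2 libraries (19 members). Ifit1, Ifit3b, Dhx58, Isg15 and Oas1a were added to these with their values in view. Alternatives covered the filter, blocks, weights, scale and each library left out. The list of receptor kinases and their transcription factors is not reported here.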

Additional observations from a re-analysis of the deposited data

Results flagged for a closer look

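Within the 5 controls, 6 of 49 members had 1 library set apart, with a gap to its nearest neighbour above 0.71 of the whole range on the deposited log2 scale. By chance about 1 in 20 groups of independent, normally spread values would show this. The members moved together, and the share over all genes was not computed. The count of 6 is therefore not read as a result about the members. For 5 of the 6 members the library was control replicate 2, at the low end. The gap was 0.90 of the range for Stat2 (1105 normalized counts), 0.876 for Helz2 (1267), 0.856 for Rtp4 (234), 0.761 for Ifit2 (862) and 0.738 for Usp18 (180.0). For Irgm1 it was control replicate 4 at the high end, with a gap of 0.748 and 5234 normalized counts. The median of all members gave control replicate 2 a gap of 0.529, under that limit. The groups of 3 libraries were not examined in this way.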

How the results depend on the processing

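No member passed the threshold under any of the alternatives run, where the lowest limma adjusted p of the 10 members tested singly (Stat2, Rigi, Dhx58, Ifit1, Ifit3, Ifit3b, Oasl1, Eif2ak2, Parp9 and Rtp4) was 0.0727. These 10 include the 9 higher at an unadjusted p under 0.05 and so were chosen for a positive difference. The number of members at an unadjusted p under 0.05 ran from 4 (without Arhgef11Sglt2 replicate 2) to 13 (without replicate 3) when 1 library was left out. It was 6 without control replicate 1, control replicate 2 or Arhgef11Sglt2 replicate 1. The share of all genes at that cut-off was not computed for any alternative. These member counts, and those below, are therefore not read as a result about the members. The median log2 difference of the members ran from 0.03 to 0.19 with 1 library left out. It was 0.28 among the lower-numbered libraries alone and -0.01 without both control replicate 2 and Arhgef11Sglt2 replicate 1 (both settings chosen after seeing the data). Of 12 other members followed as values, 208 of 216 values stayed within 1 SD of that gene's own libraries within groups, which is wide for the GBP genes. Without Arhgef11Sglt2 replicate 1 alone Gbp2 went from 0.29 to -0.09, Ifitm3 from 0.10 to -0.06 and Gbp3 from 0.28 to 0.06; without control replicate 2 as well they were -0.20, -0.17 and -0.01. Gbp6, Igtp and Iigp1, at -0.09, -0.09 and -0.07, turned to 0.08, 0.02 and 0.09 without control replicate 4 and to 0.19, 0.11 and 0.15 without Arhgef11Sglt2 replicate 3. On the log2(normalized count + 10) scale the median of the members was 0.16, and with libraries also scaled to equal totals 0.20, where that of all genes was 0.02. The count over all genes, 354, was 874 with sample weights, ran from 24 (without control replicate 4) to 1334 (without Arhgef11Sglt2 replicate 1) with 1 library left out, with 187, 135 and 76 without control replicates 1, 3 and 5 and 45 without Arhgef11Sglt2 replicate 3, and was 1218 without both control replicate 2 and Arhgef11Sglt2 replicate 1. On the log2(normalized count + 10) scale 103 were higher and 284 lower, and with equal totals on that scale 164 and 215. The count was 0 with a replicate block and 0 among the lower-numbered libraries alone, where 11 and 19 members had an unadjusted p under 0.05; both fits have fewer residual degrees of freedom. The cause of these shifts, the counts of 0 included, was not tested. Deviations of same-numbered libraries correlated at -0.18, -0.09 and -0.01, which gave no sign of pairing by number. With only 3 Arhgef11Sglt2 libraries this check cannot exclude such pairing. Members with few counts, such as Oas3 and Isg20, are limited by the compressed scale.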

Other observations

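Interferon-induced genes outside the list showed the same libraries apart. Of the 53 measured, 43 were higher in Arhgef11Sglt2 replicate 1 than in replicate 3, against 52.4% of all genes, and 33 were lowest among the controls in replicate 2, against 27.9%. The examples that follow were chosen after their values were seen. Tgtp1, a GTPase of the IRG family, had 1891, 849, 1829.5, 3998 and 2181 normalized counts in control replicates 1 to 5 and 3671, 1611 and 709.8 in Arhgef11Sglt2 replicates 1 to 3. Gbp10 had 212, 58.1, 153, 375 and 299.6 in the controls and 325, 217 and 11.9 in the Arhgef11Sglt2 libraries. Both belong to families of near-identical copies, so their single values are uncertain. Cxcl9, a T cell attractant induced by interferon gamma, had 288, 173, 319.9, 349 and 412 in the controls and 988, 88.9 and 39.8 in the other group, so its highest and its lowest library were in the same group. Its group difference did not pass the threshold (limma adjusted p = 0.807). Cxcl10, a related chemokine, had 730.0, 348, 695, 936 and 517 in the controls and 1315, 769.5 and 738 in the Arhgef11Sglt2 libraries.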
